A study of Homo sapiens with 6 samples.

Results

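The 10 genes described here encode the histone chaperone SET, the related acidic nuclear proteins ANP32A, ANP32B and ANP32E, the oncoprotein CIP2A and 5 subunits of protein phosphatase 2A (PP2A), namely *PPP2CA*, *PPP2CB*, *PPP2R1A*, *PPP2R1B* and *PPP2R5C*. They were picked by symbol, 10 of the 22807 genes in the expression table, with their values after *DUSP6* depletion already known. Their levels and differences are therefore given as a description, and the 10 genes get no p-value. Only their number among the calls of the fit over all genes is stated, beside the share of all genes called. PP2A is a serine/threonine phosphatase built from a catalytic, a scaffold and a regulatory subunit, and it acts as a tumor suppressor that removes phosphates from many of the proteins that growth factor receptors such as HER2 switch on. SET, ANP32A and CIP2A are known as proteins that bind and inhibit PP2A, and SET and the ANP32 proteins also handle histones in the nucleus. DUSP6, the gene product that was depleted, is a different kind of phosphatase that switches off the ERK kinases.

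The 6 RNA-seq libraries came from MDA-MB-453, a long-established line of HER2+ breast cancer cells. The labels give 3 libraries as Scrambled with the genotype WT and 3 as *DUSP6* knockdown, and both groups were transfected with siRNA by the study's methods, without any drug named in the labels. The study used 3 different siRNAs per group, and the labels do not tell which library received which of them. The labels say nothing of separate cultures, so the p-values measure the spread between these libraries, which may hold differences between siRNAs and between transfections as well as technical error. The values are the reads of each gene relative to a library size scaled for composition, on a linear scale, and are called normalized values below. The scaling factors of replicates 1, 2 and 3 were 0.881, 0.923 and 0.968 with scrambled siRNA and 1.086, 1.081 and 1.082 with *DUSP6* siRNA. They did not overlap between the groups, and a larger factor lowers the values of its library. How much of a small fold change comes from this scaling was not tested. Means are given ± SD over the 3 libraries of a group, and differences as log2 fold changes of the normalized value plus 1, *DUSP6* siRNA minus scrambled siRNA, with their standard error (SE) from limma.

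The reads recovered for the genes of the expression table came to between 45546981 and 85729785 per library. Each of the 10 genes had between 1746 and 47765 reads per library. The targeted gene *DUSP6* (Entrez gene 1848) had a mean of 144 ± 55.7 with scrambled siRNA and 33.0 ± 7.68 after its depletion, for a log2 fold change of -2.05 (SE 0.25, limma adjusted p = 3.09e-04). Luminal and HER2 breast markers were high in all 6 libraries, with the 7 markers summing to 3353 to 4391 with scrambled siRNA and 2686 to 2855 with *DUSP6* siRNA. *ERBB2* itself, which encodes HER2, had a mean of 984 and 495. Of the 7 markers of immune, stromal, endothelial and basal cells in the table, 6 had a mean under the filter of 1, and *COL1A1*, the remaining one, was at 92.2 and 173 and rose, while the luminal markers held 5 genes that fell and 1 that rose. The part of these shifts in the results below was not tested. Across the 12862 genes that passed the filter, 24.7% were called lower and 19.7% higher with *DUSP6* siRNA at a limma adjusted p under 0.05.

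*SET* (Entrez gene 6418) lies on chromosome 9 of hg38, chr9:128683424-128696400 on the plus strand. A copy of it without introns, *SETSIP*, lies at chr1:92074533-92075411 on the minus strand, within the table's genes. *SETSIP* matched the *SET* transcripts of Gencode v44 at 96.9% of 870 aligned bases, and no stretch of 100 bases was identical, although 5.84% of its 75-base windows and 19.4% of its 50-base windows were. The 90-base stretch of the coding sequence where both differ most is shown because it shows how a read is told apart between the genes. It holds bases 652 to 741 of the coding sequence, 5′ to 3′, with the 7 differing bases in capitals.
SET: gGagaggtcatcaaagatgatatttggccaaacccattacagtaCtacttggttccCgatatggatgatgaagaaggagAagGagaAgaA
SETSIP: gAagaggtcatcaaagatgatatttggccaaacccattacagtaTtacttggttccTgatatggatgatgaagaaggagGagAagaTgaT

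*SET* had the largest difference of the 10 genes. Scrambled siRNA replicates 1, 2 and 3 stood at normalized values of 600, 506 and 576, and *DUSP6* siRNA replicates 1, 2 and 3 at 233, 208 and 221. All other series of values below keep this order of replicates. The highest *DUSP6* siRNA library was at 0.461 of the lowest scrambled siRNA library, so the groups stood well apart. The mean went from 560 ± 48.9 to 221 ± 12.8, which is 39.4% of the scrambled siRNA level and a log2 fold change of -1.34 (SE 0.10). Counted from the most lowered gene, *SET* ranked 237 of 12862.

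*SETSIP* received far fewer reads than *SET* in every library. It was at 42.4, 38.0 and 35.1 with scrambled siRNA and at 10.8, 9.51 and 10.4 with *DUSP6* siRNA, again without overlap. For every 100 *SET* reads there were 7.07, 7.52 and 6.10 *SETSIP* reads with scrambled siRNA and 4.63, 4.58 and 4.70 with *DUSP6* siRNA. How many *SETSIP* reads come from *SET* transcripts was not tested, and the *SETSIP* value is uncertain for that reason. Summed, *SET* and *SETSIP* went from 599 ± 50.4 to 231 ± 13.4, and no overlap was seen in either form.

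*ANP32A* (Entrez gene 8125, chr15:68778535-68820897, minus strand) encodes a leucine-rich acidic protein that inhibits PP2A and binds histones. It was measured at 323, 293 and 281 with scrambled siRNA and at 215, 216 and 207 with *DUSP6* siRNA. The groups did not overlap, and the 3 *DUSP6* siRNA libraries were within a narrow range. The mean went from 299 ± 22.0 to 213 ± 4.86, or 71.2% of the scrambled siRNA level, with a log2 fold change of -0.49 (SE 0.09).

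Reads of *ANP32A* can be shared with 3 near copies in the table. *ANP32C*, *ANP32D* and *ANP32AP1* matched *ANP32A* transcripts at 94.6%, 92.1% and 96.2% of their aligned bases. *ANP32C* went from 19.0 ± 1.51 to 13.6 ± 0.51 and *ANP32D* from 3.37 ± 0.64 to 2.09 ± 0.15, both without overlap. *ANP32AP1*, the copy with the most 75-base windows identical to *ANP32A* (8.14%), was at 24.6 ± 2.98 and 24.6 ± 1.27, and its groups overlapped. These 3 copies are uncertain, since reads of *ANP32A* may have been counted in them.

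*ANP32B* (Entrez gene 10541, chr9:97983341-98015943, plus strand) encodes a relative of ANP32A, a histone chaperone. Its values were 210, 188 and 134 with scrambled siRNA and 106, 96.8 and 103 with *DUSP6* siRNA. Scrambled siRNA replicate 3 was the lowest of its group and still lay above every *DUSP6* siRNA library. The mean was 177 ± 38.9 and 102 ± 4.66, which leaves 57.4% of the scrambled siRNA level and a log2 fold change of -0.77 (SE 0.15), the second largest difference of the 10 genes.

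*ANP32E* (Entrez gene 81611, chr1:150218417-150236156, minus strand) encodes the family member that takes the histone variant H2A.Z off chromatin. It was at 166, 138 and 110 with scrambled siRNA and at 117, 108 and 112 with *DUSP6* siRNA. The groups overlapped, since scrambled siRNA replicate 3 fell among the *DUSP6* siRNA libraries. The means were 138 ± 28.1 and 113 ± 4.53, with a log2 fold change of -0.27 (SE 0.14). Single libraries weighed on this value, which was -0.43 without scrambled siRNA replicate 3 and -0.13 without scrambled siRNA replicate 1.

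*CIP2A* (Entrez gene 57650, chr3:108549864-108589644, minus strand) encodes the cancerous inhibitor of PP2A, which binds regulatory subunits of the B56 family and keeps MYC phosphorylated. Its normalized value was 61.5, 51.0 and 45.4 with scrambled siRNA and 35.3, 34.6 and 32.3 with *DUSP6* siRNA. All 3 *DUSP6* siRNA libraries were below all 3 scrambled siRNA libraries. The mean went from 52.6 ± 8.16 to 34.1 ± 1.56, to 64.7% of the scrambled siRNA level, a log2 fold change of -0.60 (SE 0.12).

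The promoters of these 4 genes, *SET*, *ANP32A*, *ANP32B* and *CIP2A*, are printed because these genes had the largest lower differences of the 10. Each is the 250 bases before the start of the canonical transcript, from RefSeq on GRCh38.p14, written 5′ to 3′ on the strand of the gene. Capitals mark matches, on either strand, to TTTNNCGC (an E2F-like element), CCAAT (the NF-Y element), CACGTG (an E-box) and CCGGAAG (an ETS-like element).
*SET* promoter, chr9:128688972-128689221, plus strand: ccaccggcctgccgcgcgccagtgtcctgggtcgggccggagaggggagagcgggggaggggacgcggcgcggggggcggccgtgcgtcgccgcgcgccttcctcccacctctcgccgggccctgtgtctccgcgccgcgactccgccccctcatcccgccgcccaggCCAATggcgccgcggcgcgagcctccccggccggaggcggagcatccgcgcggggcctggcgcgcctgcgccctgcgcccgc
*ANP32A* promoter, chr15:68820896-68821145, minus strand: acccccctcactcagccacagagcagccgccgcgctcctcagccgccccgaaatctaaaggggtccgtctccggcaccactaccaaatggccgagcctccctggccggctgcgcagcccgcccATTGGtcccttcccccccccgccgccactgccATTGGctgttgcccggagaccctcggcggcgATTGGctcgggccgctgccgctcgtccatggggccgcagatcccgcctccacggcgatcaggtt
*ANP32B* promoter, chr9:97983091-97983340, plus strand: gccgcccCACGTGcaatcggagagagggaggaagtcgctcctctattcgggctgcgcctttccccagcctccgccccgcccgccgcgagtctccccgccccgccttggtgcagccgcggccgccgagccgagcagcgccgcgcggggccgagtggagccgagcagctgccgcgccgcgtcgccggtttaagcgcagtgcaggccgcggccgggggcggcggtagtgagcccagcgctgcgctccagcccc
*CIP2A* promoter, chr3:108589439-108589688, minus strand: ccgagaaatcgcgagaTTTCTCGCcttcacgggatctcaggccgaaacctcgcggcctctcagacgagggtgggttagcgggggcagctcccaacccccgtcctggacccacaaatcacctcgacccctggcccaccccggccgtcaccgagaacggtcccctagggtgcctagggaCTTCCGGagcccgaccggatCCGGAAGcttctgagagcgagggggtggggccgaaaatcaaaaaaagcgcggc

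No motif was found in all 4 windows. *SET* held 1 CCAAT match and *ANP32A* held 3, while 32.0% of all 35116 promoter windows of the same length held this motif. *ANP32B* held 1 CACGTG match, found in 6.34% of all windows. *CIP2A* held 1 TTTNNCGC match and 2 CCGGAAG matches, found in 5.92% and 8.52% of all windows. At the canonical starts of *PPP2R1A*, *PPP2CA* and *PPP2R1B*, the windows held 2 CCAAT matches, 0 matches and 0 matches to any of the 4 motifs. The windows of *ANP32E*, *PPP2CB* and *PPP2R5C* were left out of this comparison. *SET* has 5 listed starts, and the window shown is that of its canonical transcript. Other starts could differ, with 1 CACGTG match at another *SET* start and 1 CCAAT match at another *PPP2CA* start. The other *PPP2R1A* start held 0 matches. A match is a run of letters and says nothing of whether a factor binds there.

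The catalytic subunit of PP2A is made from 2 genes with nearly the same protein product. *PPP2CA* (Entrez gene 5515, chr5:134194035-134226073, minus strand) was at 164, 173 and 197 with scrambled siRNA and at 159, 162 and 164 with *DUSP6* siRNA. The highest *DUSP6* siRNA library reached 0.9996 of the lowest scrambled siRNA library, so that the groups were separated by almost nothing. The means were 178 ± 16.8 and 162 ± 2.45, with a log2 fold change of -0.13 (SE 0.09) that was -0.06 without scrambled siRNA replicate 3 and 0.05 under quantile normalization. Of the *PPP2CA* exon sequence, 37.0% is shared with another locus on the same strand in Gencode v44, which is absent from the RefSeq genes used here, and the value is uncertain to that extent.

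*PPP2CB* (Entrez gene 5516, chr8:30774457-30814314, minus strand), the less abundant catalytic gene, was at 59.6, 48.7 and 59.8 with scrambled siRNA and at 45.1, 45.6 and 47.6 with *DUSP6* siRNA. All *DUSP6* siRNA libraries were lower, with scrambled siRNA replicate 2 close to them. The mean went from 56.0 ± 6.39 to 46.1 ± 1.30, to 82.3% of the scrambled siRNA level and a log2 fold change of -0.27 (SE 0.10). The value lay between -0.37 and -0.22 when 1 library was left out.

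Scaffold subunits hold the catalytic and the regulatory subunit together. *PPP2R1A* (Entrez gene 5518, chr19:52170936-52229518, plus strand), the main scaffold gene, was at 172, 177 and 230 with scrambled siRNA and at 227, 248 and 223 with *DUSP6* siRNA. Scrambled siRNA replicate 3 overlapped the *DUSP6* siRNA libraries, while the other 2 were lower. The means were 193 ± 32.0 and 233 ± 13.4, a log2 fold change of 0.28 (SE 0.12) that was 0.20 without scrambled siRNA replicate 1, 0.41 without scrambled siRNA replicate 3 and 0.48 under quantile normalization. An antisense locus covers 13.0% of its exon sequence in Gencode v44, and the default counting of the aligner's package does not use strand.

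*PPP2R1B* (Entrez gene 5519, chr11:111726908-111766389, minus strand), the second scaffold gene, was at 43.9, 89.4 and 91.6 with scrambled siRNA and at 80.6, 88.6 and 81.3 with *DUSP6* siRNA. Scrambled siRNA replicate 1 was far below the other 5 libraries, which all lay close together. The means were 75.0 ± 26.9 and 83.5 ± 4.39, with a log2 fold change of 0.23 (SE 0.24) that turned to -0.12 without scrambled siRNA replicate 1. Neither direction can be drawn from these values.

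*PPP2R5C* (Entrez gene 5527, chr14:101761709-101927989, plus strand) encodes the gamma member of the B56 regulatory subunits, which direct PP2A to its substrates. It was at 168, 164 and 155 with scrambled siRNA and at 160, 188 and 163 with *DUSP6* siRNA. The groups overlapped, and *DUSP6* siRNA replicate 2 was the highest library. The means of 162 ± 6.38 and 170 ± 15.2 gave a log2 fold change of 0.07 (SE 0.09), the smallest of the 10 genes. It turned to -0.0062 without *DUSP6* siRNA replicate 2 and was 0.24 under quantile normalization, so no direction can be drawn for *PPP2R5C*.

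**Figure D1:**
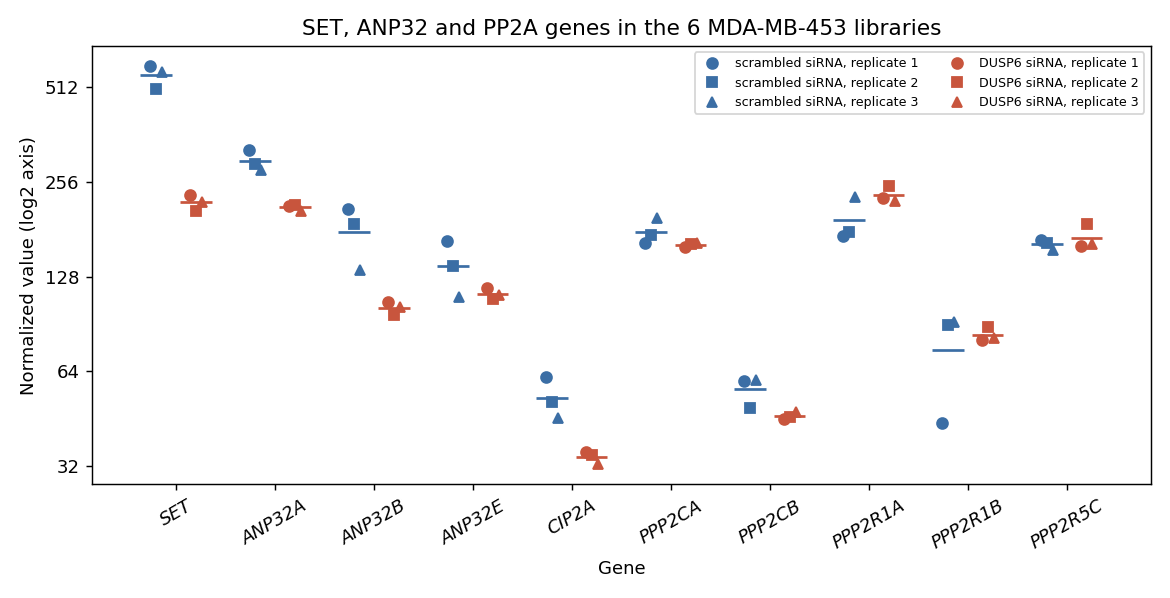
Normalized value (log2 axis) of the 10 genes in each library, with scrambled siRNA in blue, *DUSP6* siRNA in red, a symbol for each replicate number and a bar at each group's mean. *SET* goes from 506 to 600 down to 208 to 233, whereas the 2 groups of *ANP32E*, *PPP2R1A*, *PPP2R1B* and *PPP2R5C* overlap.

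All 10 genes passed the filter on low values. At an adjusted p under 0.05, 4 of them were called lower, 0 higher and 6 in neither direction, where 24.7% of all genes tested were called lower, 19.7% higher and 44.5% in either direction. The groups did not overlap for 6 genes, all lower, where 31.1% of all genes were lower without overlap and 26.7% higher. The median log2 fold change was -0.27 over the 10 genes and -0.01 over all genes tested. Since the genes were picked with this contrast in view, nothing is read from these counts.

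**Figure D2:**
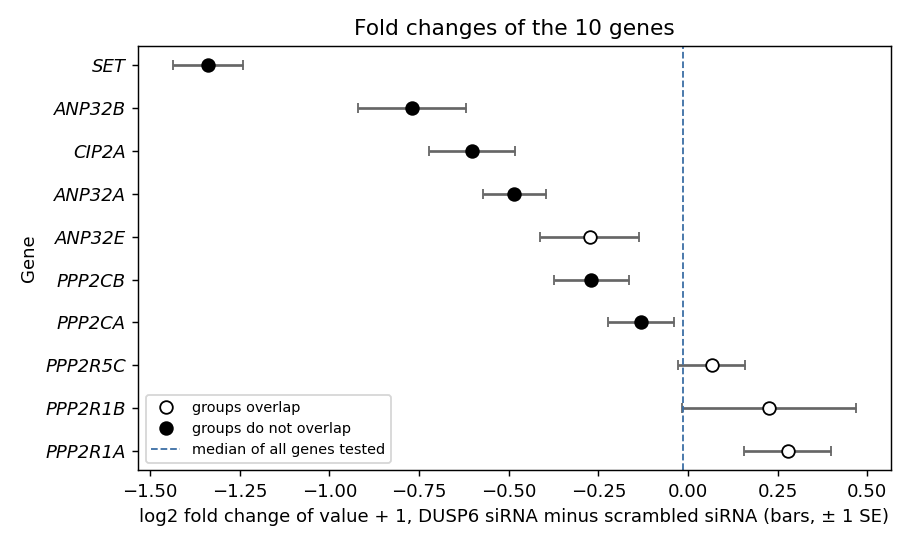
Log2 fold change (normalized value plus 1, *DUSP6* siRNA minus scrambled siRNA) of the 10 genes with bars of 1 SE, filled where the groups did not overlap. *SET* lies at -1.34 and *PPP2R1A* at 0.28, with the median of all genes tested at -0.01 as a dashed line.

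The libraries of the 2 groups also differed in how far they spread. Over all 10 genes, the coefficient of variation (SD over mean) ran from 3.93% to 35.9% with scrambled siRNA and from 1.52% to 8.95% with *DUSP6* siRNA. It was larger with scrambled siRNA for 9 of them, with *PPP2R5C* (3.93% against 8.95%) as the exception. The same held for 78.8% of all genes tested, with a median of 12.7% and 6.04%, so the larger spread of the scrambled siRNA libraries was shared by most of the table.

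Ratios within a library do not depend on how the libraries were scaled. They were taken of *SET*, *ANP32A* and *CIP2A* to the catalytic genes, and no ratio was taken for genes of other PP2A inhibitors. The normalized value of *SET* over the sum of *PPP2CA* and *PPP2CB* was 2.68, 2.28 and 2.25 with scrambled siRNA and 1.14, 0.998 and 1.04 with *DUSP6* siRNA, without overlap. Its mean went from 2.40 ± 0.24 to 1.06 ± 0.07. The denominator itself went from 234 ± 19.4 to 208 ± 3.63. A lower denominator raises the ratio, so the fall of the ratio lay in *SET* and not in the catalytic genes.

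For *ANP32A* the same ratio was 1.44, 1.32 and 1.09 with scrambled siRNA and 1.05, 1.04 and 0.980 with *DUSP6* siRNA. The groups did not overlap, although scrambled siRNA replicate 3 and *DUSP6* siRNA replicate 1 were close. For *CIP2A* it was 0.275, 0.230 and 0.177 with scrambled siRNA and 0.173, 0.166 and 0.153 with *DUSP6* siRNA, again lower in all 3 libraries by a small margin. Within the catalytic pair, *PPP2CA* over *PPP2CB* was 2.75, 3.56 and 3.29 against 3.53, 3.56 and 3.45, and these groups overlapped. Within the scaffold pair, *PPP2R1A* over *PPP2R1B* was 3.93, 1.98 and 2.51 against 2.82, 2.80 and 2.75, where scrambled siRNA replicate 1 stood out through its low *PPP2R1B*.

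**Figure D3:**
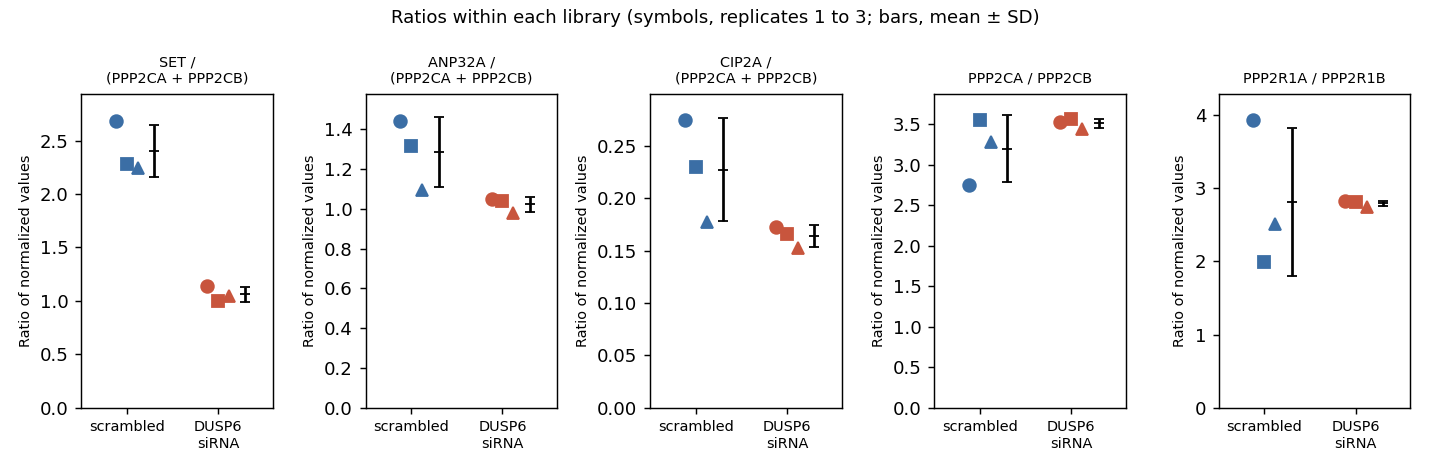
Ratios of normalized values within each library, with 1 symbol per library and the mean ± SD of 3 libraries beside them, each axis starting at 0. *SET* over the 2 catalytic genes goes from a mean of 2.40 to 1.06, whereas *PPP2CA* over *PPP2CB* and *PPP2R1A* over *PPP2R1B* overlap between the groups.

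Levels of different genes were compared per length, as normalized value per kb of the canonical transcript in Gencode v44. Reads were assigned to RefSeq gene models, so levels, order and shares per kb depend on the transcript taken for the length. The SD does not cover this. With scrambled siRNA, *SET* was the highest at 191 ± 16.7 per kb. *ANP32A* at 122 ± 9.0 and *ANP32B* at 120 ± 26.2 followed and did not differ beyond their spread. The next 4 genes were also within each other's spread, with *ANP32E* at 40.6 ± 8.24, *PPP2CA* at 38.8 ± 3.66, *PPP2R1A* at 36.1 ± 5.97 and *PPP2R5C* at 35.0 ± 1.38 per kb. Lower in the order came *PPP2CB* at 28.8 ± 3.28 per kb, and then *PPP2R1B* at 13.5 ± 4.85 and *CIP2A* at 12.9 ± 2.01, which could not be told apart.

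With *DUSP6* siRNA the level per kb of *SET* was 75.4 ± 4.37, under that of *ANP32A* at 87.2 ± 1.99 and near that of *ANP32B* at 68.7 ± 3.14. *PPP2R1A* was at 43.5 ± 2.50, *PPP2R5C* at 36.8 ± 3.29, *PPP2CA* at 35.3 ± 0.54 and *ANP32E* at 33.0 ± 1.33 per kb. *CIP2A* remained the lowest at 8.38 ± 0.38 per kb. The level per kb of *SET* over that of both catalytic genes together was 2.84 ± 0.22 with scrambled siRNA and 1.28 ± 0.09 with *DUSP6* siRNA. Of the catalytic level per kb, *PPP2CA* made up 57.4% ± 3.23 and 59.9% ± 0.40, and of the scaffold level *PPP2R1A* made up 73.3% ± 6.56 and 74.3% ± 0.26, differences within the spread of the scrambled siRNA libraries.

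The other subunits and regulators of PP2A were examined with a list of 27 genes, of which 26 were tested. At a limma adjusted p under 0.05, 8 fell (30.8%), 3 rose (11.5%) and 15 were not called, with a median log2 fold change of -0.16, beside 24.7% lower and 19.7% higher over all genes. No list was tested as a whole. *PPP2R3A*, a regulatory subunit of the B″ family that binds calcium, was at 19.5, 20.6 and 16.9 with scrambled siRNA and at 9.6, 9.6 and 10.2 with *DUSP6* siRNA, and fell most (log2 fold change -0.88, limma adjusted p = 0.0003). *FAM122B*, a relative of the PP2A inhibitor FAM122A, fell by 0.54 (limma adjusted p = 0.0051) and *STRN*, the striatin that brings PP2A into the STRIPAK complex, fell by 0.53 (0.0029). *PPP2R5D*, the delta member of the B56 subunits, fell by 0.50 (0.0024). In the other direction, the B56 beta gene *PPP2R5B* was at 20.3, 23.3 and 26.9 with scrambled siRNA and at 39.4, 44.3 and 41.9 with *DUSP6* siRNA, and rose by 0.81 (0.0008). *FAM122C*, with means of only 1.24 with scrambled siRNA and 1.78 with *DUSP6* siRNA, near the filter of 1, rose by 0.31 (0.0393). *BOD1*, an inhibitor of PP2A with B56 at the centromere, rose by 0.55 (0.0463). *BOD1* was at 16.4, 21.5 and 31.7 with scrambled siRNA and at 32.2, 33.7 and 34.1 with *DUSP6* siRNA, so scrambled siRNA replicate 3 nearly reached the other group.

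Phosphatases related to PP2A were examined in the same way. Of 16 tested genes of PP1, calcineurin, PP4, PP5 and PP6, 3 fell, 2 rose and 11 were not called, with a median log2 fold change of -0.07. The shares were 18.8% lower and 12.5% higher, beside 24.7% and 19.7% over all genes. *PPP3CA* and *PPP3CB*, which encode alternative catalytic subunits of calcineurin, went in opposite directions, by -0.46 (limma adjusted p = 0.0462) and 0.46 (0.0147). For *PPP3CA*, scrambled siRNA replicate 1 at 50.8 was close to the *DUSP6* siRNA libraries at 49.9, 50.4 and 47.9. *PPP3R1*, the regulatory subunit of calcineurin, rose by 0.40 (0.0111). *PPP5C*, which encodes PP5, fell by 0.40 (0.0049) and *PPP4R1*, a regulatory subunit of PP4, fell by 0.27 (0.0235).

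Among 21 tested genes of the SET complex and of histone chaperones, 11 fell (52.4%), 2 rose and 8 were not called, with a median log2 fold change of -0.26, beside 24.7% lower and 19.7% higher over all genes. Both large subunits of chromatin assembly factor 1, which deposits histones on newly copied DNA, were among them. *CHAF1B* was at 45.0, 38.5 and 41.3 with scrambled siRNA and at 22.8, 19.3 and 21.2 with *DUSP6* siRNA (log2 fold change -0.95, limma adjusted p = 0.0002), and *CHAF1A* fell by 0.82 (0.0003). *HMGB2*, a DNA-bending protein of the SET complex, fell by 0.78 (0.0009), and *NASP*, a chaperone of linker and core histones, fell by 0.67 (0.0007). *HIRA*, which deposits histone H3.3 outside replication, rose by 0.63 (0.0013), and the SET-related gene *TSPYL4* rose by 0.51 (0.0079). Of 10 proliferation markers 9 fell, where 24.7% of all genes were called lower, with a median log2 fold change of -0.57 and sums of 1814 to 2190 with scrambled siRNA and 1089 to 1268 with *DUSP6* siRNA. The part of fewer dividing cells in the lower values of *SET*, *ANP32A*, *ANP32B*, *CIP2A* and these chaperones was not tested, and in bulk RNA fewer cells of a kind and less RNA per cell cannot be told apart.

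**Figure D4:**
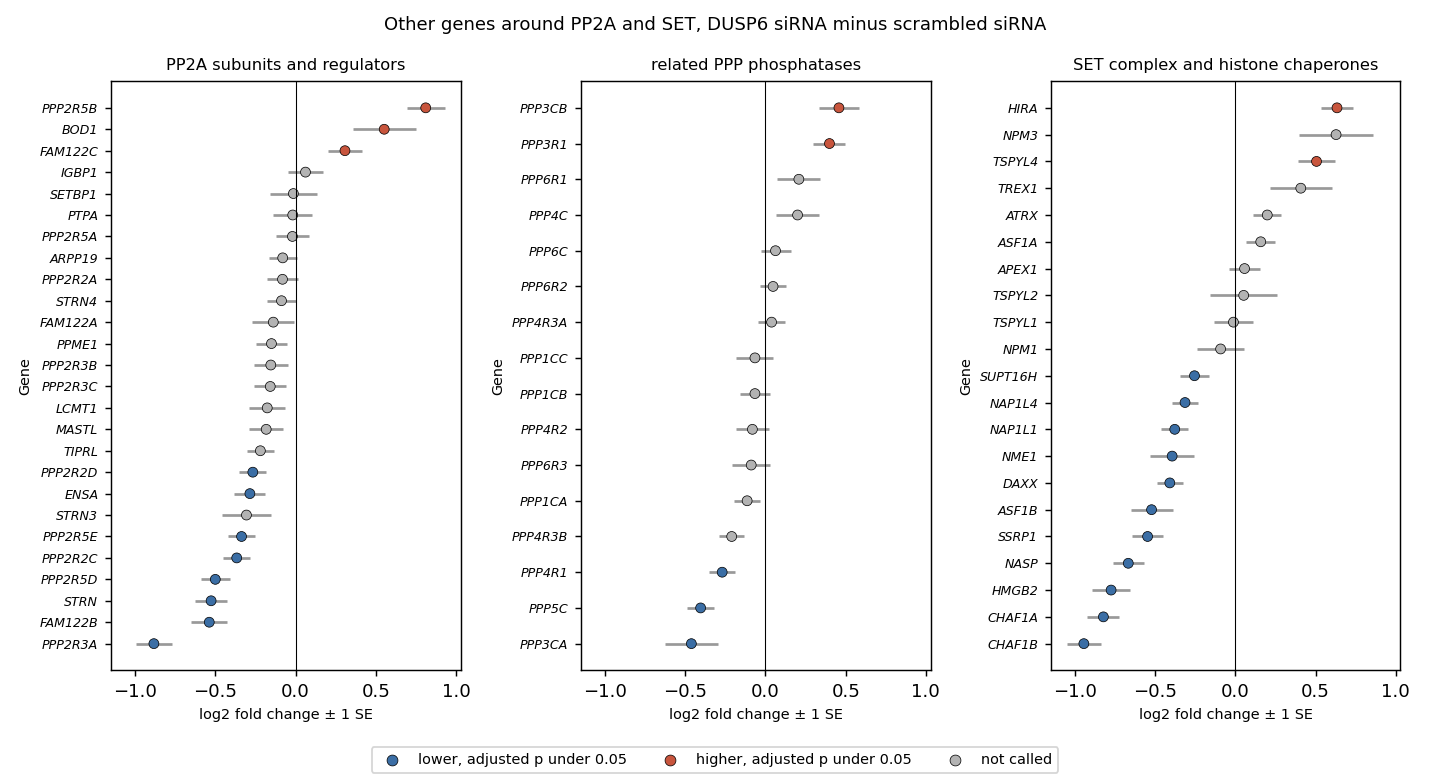
Log2 fold change with bars of 1 SE (*DUSP6* siRNA minus scrambled siRNA) of the tested genes of 3 lists, with calls at a limma adjusted p under 0.05 in blue (lower) and red (higher). In the list of the SET complex and histone chaperones 11 of 21 genes are lower, and in the list of PP2A subunits and regulators 8 of 26 are lower and 3 higher.

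The genes with the profile most like that of *SET* were found by the root mean square difference of the centred log2 values over the 6 libraries. They were *NDC1* (0.0406), a nuclear pore protein of the membrane, *PDS5A* (0.0451), a regulator of cohesin, *TMEM97* (0.0531), a membrane protein that binds sterols, *LARS2* (0.0545), the mitochondrial leucyl-tRNA synthetase, and *DDX41* (0.0574), an RNA helicase. Their log2 fold changes were between -1.40 and -1.27, near the -1.34 of *SET*. They were picked for this likeness over 6 libraries, and nothing about shared function or control follows from it.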

How the data were processed

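RNA of 6 MDA-MB-453 libraries was sequenced, 3 after scrambled and 3 after *DUSP6* siRNA. The authors used Rsubread, with default settings for the assignment to RefSeq gene models, on hg38, and deposited 1 normalized signal value per gene and library. The submitters' processing notes name edgeR. Each deposited signal value was a whole number of reads (100% of values, tolerance 0.01) times a step of 0.0121 to 0.0202 per library, and the scaling was that of edgeR's TMM. Groups and replicate numbers came from the labels.

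Values were taken as log2(value + 1). The 12862 of 22807 genes with a mean of at least 1 were fitted in R 4.3.3 with limma 3.58.1, using lmFit and a trended eBayes. A gene was called where its Benjamini-Hochberg adjusted p was under 0.05. The scripts were tested on simulated data. Members and lists were chosen with earlier results of these data known. Named were all 10 genes, *DUSP6*, near copies of *SET* and *ANP32A*, the 5 genes with the profile nearest to *SET*, and of each list up to 4 genes called lower and 4 called higher with the largest fold change, plus all where 5 or fewer were called in one direction. *ERBB2* was named after its values were seen. Fold changes of low genes are understated by the pseudocount. Positions, lengths and transcripts came from Gencode v44, aligned with Biopython 1.88, and promoters from RefSeq. Window searches covered both strands. As alternatives, each library was left out in turn, the replicate number was fitted as a block, the pseudocount was set to 0.1, the filter was dropped or raised to a mean of 10, values were rescaled by the median of ratios or quantile-normalized, the trend was dropped from eBayes, and the recovered reads were tested by quasi-likelihood in edgeR 4.0.16. *TSPYL5* and *CD3E* were not analysed here.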

Additional observations from a re-analysis of the deposited data

How the results depend on the processing

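The number of the 10 genes called lower was 4 under all 8 alternatives that kept every library and 4 to 5 without 1 library. It was 5 without scrambled siRNA replicate 2, where *PPP2CB* was at -0.37, and 5 without replicate 3, where *ANP32E* was at -0.43. The number called higher was 0, except for 1 gene under quantile normalization and without scrambled siRNA replicate 3 (0 to 1 over the libraries left out). In these 2 settings *PPP2R1A* was at 0.48 and 0.41. Of 141 fold changes of the 10 genes under alternatives, 136 moved by less than 1 SD, and all others came under quantile normalization. The changed filters, the replicate block and eBayes without a trend cannot move a fold change here. The count of 136 includes these settings and is no measure of robustness. Under quantile normalization *SET* was at -1.12 and *ANP32A* at -0.27, and *PPP2CA* changed sign to 0.05. With the reads of *SET* and *SETSIP* summed, an alternative chosen after seeing the data, the fold change of *SET* was -1.37. *SET* stayed between -1.41 and -1.29 without 1 library.

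The lists moved more. Under quantile normalization 5 PP2A subunits and regulators were lower, 1 related phosphatase was lower and 4 were higher, and 7 genes of the SET complex and histone chaperones were lower and 4 higher. Without 1 library, PP2A subunits and regulators had 5 to 10 lower and 1 to 2 higher, related phosphatases 1 to 4 lower and 0 to 3 higher, and the SET complex and histone chaperones 8 to 10 lower and 2 to 4 higher. The 5 and the 10 lower PP2A genes came without *DUSP6* siRNA replicate 3 and scrambled siRNA replicate 3. Leaving out scrambled siRNA replicate 2 or any 1 *DUSP6* siRNA library left 1 PP2A gene higher. The 1 lower related phosphatase came without any 1 of the *DUSP6* siRNA libraries and the 4 without scrambled siRNA replicate 1, while 0 were higher without *DUSP6* siRNA replicate 2 and 3 without scrambled siRNA replicate 3. The latter also gave 4 higher chaperone genes. The causes of these shifts were not tested. Same-numbered libraries of the 2 groups correlated at 0.005, 0.087 and -0.076 in their deviations, and not every library correlated best with its own number. No pairing by number was seen. Deviations within a group of 3 libraries depend on each other, so this check cannot decide whether the numbers pair them. With a replicate block, 6 PP2A subunits and regulators were lower and 2 higher, and 2 related phosphatases were lower and 2 higher. In this setting 10 chaperone genes were lower and 4 higher, and the counts of the 10 genes stayed the same.

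With 3 libraries a group, an exact permutation test cannot go below p = 0.1, and the calls rest on limma's shared variance. The 3 siRNAs of a group cannot be told apart from the spread between libraries.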
